A study of Mus musculus with 8 samples.

Results

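The WNT ligands, Frizzled receptors and modulators are 52 genes of the 41709 gene symbols in the deposited table. They were listed by gene symbol from known roles, a choice made with earlier results of these data in view, and no measured value enters the rule: 19 WNT ligands, 12 receptors (10 Frizzled proteins and the coreceptors Lrp5 and Lrp6), 10 secreted inhibitors, 4 R-spondins and 7 genes that are targets of the pathway or damp it. Each library held the RNA of 1 whole mouse embryo taken on embryonic day 9.5. One group was 4 embryos homozygous for the K399A allele of Smo (mutant), and the other was 4 embryos with wild-type Smo (WT), all from crosses between carriers of 1 mutant allele. The embryos came from several litters, the labels do not tie an embryo to a litter, and the strain is not named. Smo encodes Smoothened, the membrane protein that passes the Hedgehog signal on to the GLI transcription factors, and the mutant is an amino acid substitution rather than a deletion.

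WNT proteins are lipid-modified secreted signals that bind a Frizzled receptor together with LRP5 or LRP6. In the canonical branch this stops the breakdown of beta-catenin, which then joins TCF and LEF factors on DNA and switches on targets such as Axin2. Other ligands, Wnt5a and Wnt11 among them, act mainly through branches that steer cell polarity and movement. In the mid-gestation mouse embryo WNT signals are known for tail bud growth, patterning of the dorsal neural tube and of the boundary between midbrain and hindbrain, and for steps of heart, lung and limb formation. Hedgehog signalling often works opposite or beside WNT signalling in the neural tube and somites.

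Values are TPM, reads divided by gene length and scaled to the library total, so levels can be compared between genes. The steps between values gave back 59.1 to 60.4 M counted reads per library, M standing for mega. Smo had 125.7 to 156.3 TPM in mutants and 132.4 to 146.7 TPM in WT embryos, which does not check the genotype, since a substitution need not alter the transcript. Gli1, a transcriptional readout of Hedgehog signalling, had 20.6 ± 7.61 TPM in mutants and 28.5 ± 1.91 TPM in WT embryos (SD, n = 4 each; limma adjusted p = 0.372). Ptch1, also checked, had 33.5 ± 7.13 TPM in mutants and 36.2 ± 4.69 TPM in WT embryos (limma adjusted p = 0.701). All genes of the marker lists for heart muscle, neurons, primitive red cells and tail bud were above 0. The mutant libraries differed among themselves: small nucleolar RNA host genes summed to 296.3 and 278.6 TPM in mutants 3 and 4, against 543.9 and 667.4 TPM in mutants 1 and 2 and 587.6 to 702.4 TPM in WT embryos. Yolk sac endoderm markers, of which 13 of 13 were above 0, summed to 1471, 900.3, 250.2 and 167.8 TPM in mutants 1 to 4 and to 20.9, 47.1, 283.8 and 24.6 TPM in WT embryos 1 to 4. In such bulk samples, fewer cells of a type and less RNA per cell cannot be told apart.

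Mean levels of the 52 genes ran from 0.403 TPM for Dkk4 to 141.9 TPM for Sfrp1, with 32 genes at 10 TPM or more and 4 at 100 TPM or more. The 4 were Sfrp1, Sfrp2, Fzd2 and Fzd7. A test needed 1 TPM or more in 4 or more embryos, a level that 49 of the 52 genes reached. The other 3 were Wnt16, Sfrp4 and Dkk4. Dkk4 rested on 5 to 19 reads per library, while Fzd2 rested on 8454 to 11254, so counting error matters for the lowest genes and little for the rest.

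**Figure D1:**
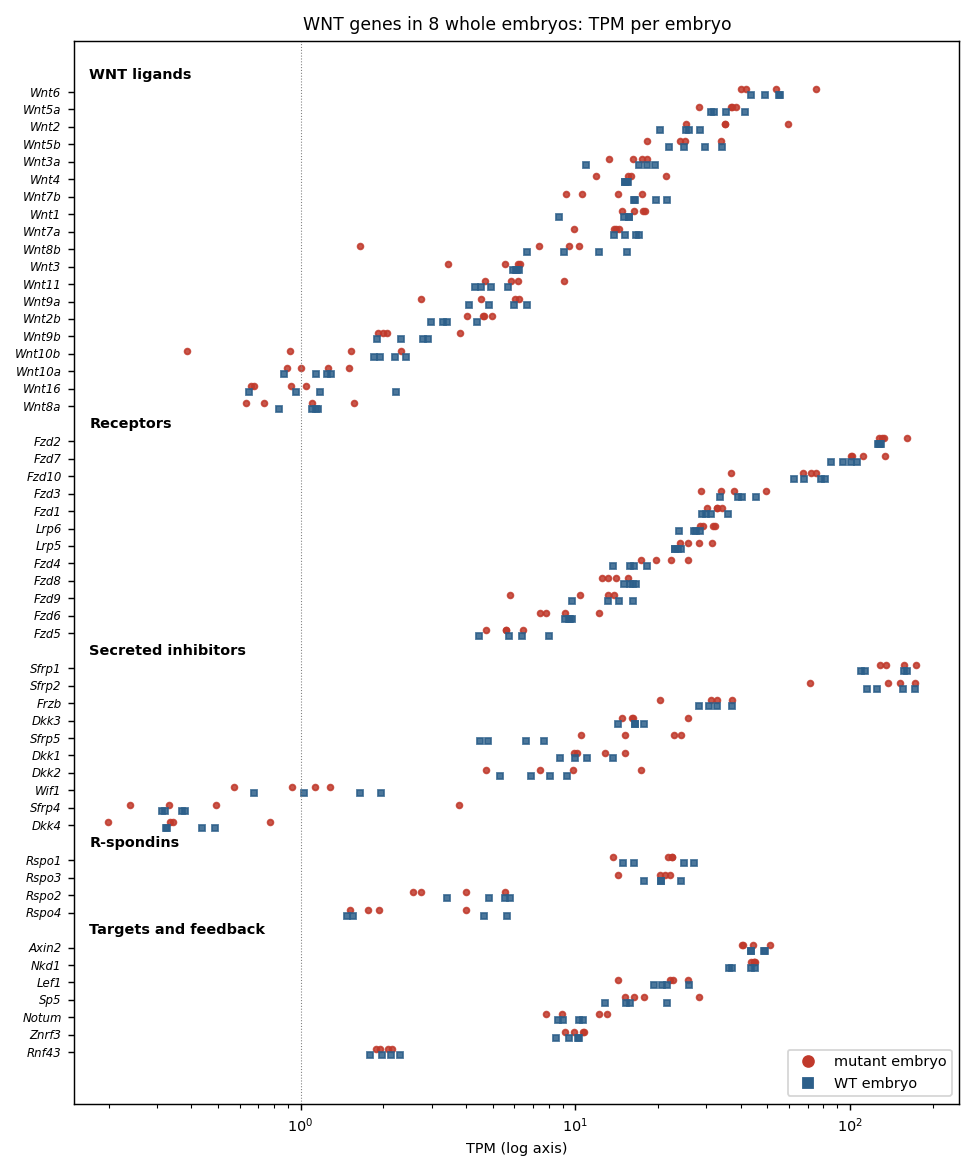
TPM of all 52 genes in each embryo, on a log axis, by role and mean level; circles are the 4 mutants and squares the 4 WT embryos, and the dotted line is 1 TPM. Most rows overlap between genotypes, and Sfrp5 is the row with the widest gap, at 10.5 to 24.3 TPM in mutants and 4.50 to 7.68 TPM in WT embryos.

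The question here was how transcripts of the WNT pathway stood when Smoothened carried the substitution. The fold changes of the family centred near 0, and a single gene, Sfrp5, stood well apart, with 3.08 times the WT mean TPM in mutants. Limma on log2(TPM + 1) called 0 of the 49 tested genes at an adjusted p under 0.05, as it called 0.00% of the 13596 genes tested in the table. An unadjusted p under 0.05 was reached by 8 of the 49 genes (16.3%), against 13.5% of all tested genes. Of these, 6 were higher in mutants (12.2%, against 5.55% of all tested genes) and 2 were lower (4.08%, against 8.0%). The 8 were Sfrp5, Fzd4, Wnt2b, Wnt2, Lrp6 and Lrp5, which were higher, and Wnt7b and Fzd8, which were lower. The count of 8 became 4 without mutant 4 or without WT 1, 5 without WT 2, WT 3 or WT 4, and 5 with the replicate number as a block, where Wnt2b, Lrp5 and Fzd8 no longer had an unadjusted p under 0.05. It was 9 without mutant 1, 10 with array weights, 5 without mutants 3 and 4, and 11 without mutants 1 and 2.

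The embryos of both genotypes did not overlap for 2 of the 49 genes, Sfrp5 and Lrp6, both higher in mutants (4.08%, against 3.63% of all tested genes). No tested WNT gene lay wholly below the WT embryos, against 3.82% of all tested genes. The median log2 fold change of the 49 genes was -0.02, beside -0.04 over all tested genes, with 24 genes above 0 (48.98%, against 37.7% of all tested genes) and 25 below. In 35 of the 49 (71.4%) the log2 fold change was within 0.25 of 0, which held for 82.6% of all tested genes. The median half-width of the 95% confidence interval was 0.35, so changes smaller than that were mostly not resolved by 4 embryos a group.

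**Figure D2:**
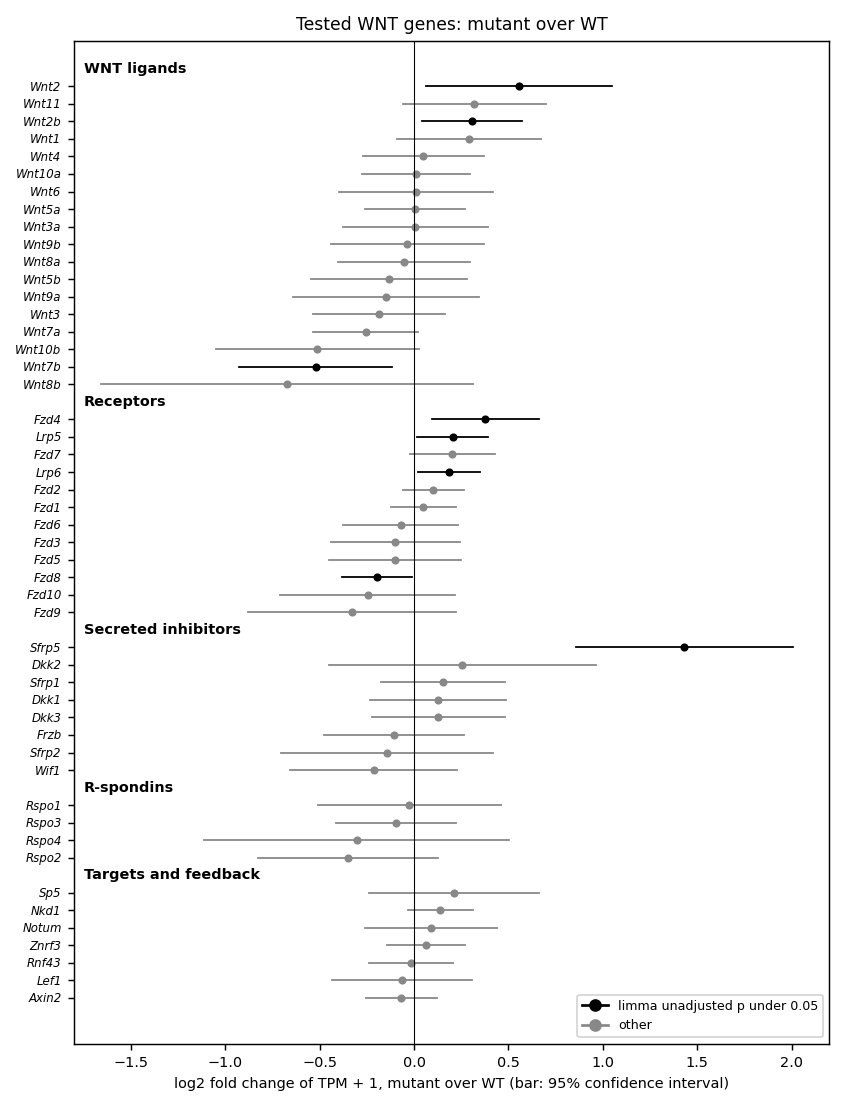
Log2 fold change of TPM + 1, mutant over WT, for the 49 tested genes by role, with 95% confidence intervals from limma; black marks an unadjusted p under 0.05 (8 genes). Sfrp5 lies farthest from 0, at 1.43, and most other intervals cross 0.

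The ligands summed to 262.4 ± 23.9 TPM in mutants and 257.0 ± 23.9 TPM in WT embryos (SD, n = 4 each). Wnt6, a ligand of surface ectoderm, was the most abundant and made up 19.8% ± 4.26 of the ligand sum in mutants and 19.8% ± 1.60 in WT embryos. It had 75.3, 40.0, 53.7 and 41.7 TPM in mutants 1 to 4 and at 55.5, 43.7, 55.1 and 48.98 TPM in WT embryos 1 to 4. Mutant 1 was the highest of the 8 embryos and the groups overlapped, with a log2 fold change of 0.01 ± 0.18 (SE; limma adjusted p = 0.982).

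Wnt5a, which drives outgrowth of limb and tail through the polarity branch, came next, at 28.1, 36.9, 38.6 and 37.3 TPM in mutants and 41.4, 32.1, 35.4 and 31.2 TPM in WT embryos. Mutant 1 was the lowest embryo and the other 3 mutants lay within the WT range. Its log2 fold change was 0.01, with a 95% confidence interval of -0.26 to 0.27, and limma's adjusted p was 0.984. Wnt5b, its close relative in cartilage, had 18.3 to 33.9 TPM in mutants and 21.9 to 34.1 TPM in WT embryos.

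Wnt2 (chromosome 6, 17988940 to 18030585, build GRCm38) is known from the inflow region of the heart and the allantois. It had 59.7, 25.4, 35.1 and 35.2 TPM in mutants 1 to 4 and 28.4, 20.4, 25.4 and 26.0 TPM in WT embryos 1 to 4. Mutants 1, 3 and 4 were above every WT embryo and mutant 2 lay within the WT range. The log2 fold change came to 0.56 ± 0.22 (SE; limma adjusted p = 0.334; exact permutation p = 0.0857). Wnt2 made up 14.6% ± 4.26 of the ligand sum in mutants and 9.76% ± 1.19 in WT embryos. Without mutant 1 the log2 fold change was 0.33, and without mutant 2 it was 0.73. Of the 8 heart muscle markers, 7 had log2 fold changes above 0 and 1 lay below, while 37.7% of all tested genes lay above 0. The 8 markers summed to 1822 to 3698 TPM in mutants, with mutant 1 the highest, and to 1202 to 1728 TPM in WT embryos. Their part in the Wnt2 difference was not tested.

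Wnt2b, which acts with Wnt2 to set up the lung in the foregut, had 4.99, 4.02, 4.66 and 4.62 TPM in mutants and 3.42, 4.37, 2.98 and 3.31 TPM in WT embryos. WT 2 was the only WT embryo above any mutant. The log2 fold change came to 0.31 ± 0.12 (SE; limma adjusted p = 0.329; exact permutation p = 0.0571). Wnt11, a polarity ligand of the outflow tract, had 4.71 to 9.11 TPM in mutants and 4.30 to 5.69 TPM in WT embryos, with 9.11 TPM in mutant 1.

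Wnt7b (chromosome 15, 85535437 to 85582473), known in brain vessel growth and in lung, was the ligand with the smallest p among those lower in mutants. It had 9.24, 14.4, 17.4 and 10.5 TPM in mutants 1 to 4 and 21.5, 19.6, 16.4 and 16.5 TPM in WT embryos 1 to 4. Mutants 1, 2 and 4 were below every WT embryo, and mutant 3 lay inside the WT range. The log2 fold change came to -0.52 ± 0.18 (SE; limma adjusted p = 0.313; exact permutation p = 0.0857). Its relative Wnt7a, which patterns the dorsal limb, had 9.88 to 14.4 TPM in mutants and 13.8 to 17.1 TPM in WT embryos. Wnt8b, of the dorsal forebrain, had 1.65, 10.3, 9.46 and 7.35 TPM in mutants and 15.4, 12.2, 9.12 and 6.69 TPM in WT embryos. Mutant 1 was far below the other 7 embryos, and the WT embryos were spread widely. Neuronal markers, 4 of 4 above 0, summed to 61.0 to 133.8 TPM in mutants and 106.7 to 258.8 TPM in WT embryos, and their part in these differences was not tested.

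Of the ligands known from the dorsal neural tube and the posterior embryo, Wnt1, Wnt3a, Wnt3 and Wnt8a had unadjusted limma p of 0.118, 0.972, 0.267 and 0.735. Wnt1, needed for the midbrain, had 14.8, 16.4, 17.7 and 17.9 TPM in mutants and 15.03, 15.6, 15.6 and 8.72 TPM in WT embryos, where WT 4 was the low embryo. Wnt3a, which keeps the tail bud making mesoderm, had 16.3 ± 2.21 TPM in mutants and 16.5 ± 3.79 TPM in WT embryos (SD, n = 4 each), with a 95% confidence interval of its log2 fold change of -0.38 to 0.39. Wnt3, needed to start gastrulation, had 6.19, 5.54, 6.31 and 3.43 TPM in mutants and 6.15, 5.94, 6.21 and 6.10 TPM in WT embryos. The WT embryos were nearly level and mutant 4 was the low one. Wnt8a, of the posterior embryo, had 0.631 to 1.56 TPM in mutants and 0.833 to 1.16 TPM in WT embryos.

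Wnt4, which starts kidney tubules, had 21.3, 15.6, 15.9 and 11.9 TPM in mutants and 15.5, 15.1, 15.2 and 15.4 TPM in WT embryos. Its mean hardly differed while mutants 1 and 4 lay on opposite sides of a narrow WT range. Wnt9b, of the ureteric bud, had 1.91 to 3.81 TPM in mutants and 1.90 to 2.90 TPM in WT embryos. Wnt9a, known in joints, had 2.74 to 6.24 TPM in mutants and 4.11 to 6.68 TPM in WT embryos. Wnt10a, of teeth and skin, had 0.894 to 1.50 TPM in mutants and 0.873 to 1.29 TPM in WT embryos. Wnt16, untested, had 0.662 to 1.05 TPM in mutants and 0.647 to 2.22 TPM in WT embryos.

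Wnt10b, which restrains fat cell formation, had 2.33, 1.52, 0.914 and 0.386 TPM in mutants and 1.85, 2.201, 1.95 and 2.42 TPM in WT embryos. Mutants 2, 3 and 4 lay below every WT embryo and mutant 1 among them (log2 fold change -0.51 ± 0.24, SE; limma adjusted p = 0.382; exact permutation p = 0.114). Its lowest library held 25 reads. Wnt10b and Wnt1 are neighbours on chromosome 15, 11.7 kb apart on opposite strands, and Wnt1 averaged 16.7 TPM in mutants and 13.8 TPM in WT embryos. The other close pairs were Wnt6 and Wnt10a (6.19 kb), Wnt3a and Wnt9a (16.2 kb) and Wnt9b and Wnt3 (24.3 kb). In each of these pairs the members stood at different levels, most so Wnt6 and Wnt10a, at 52.7 and 1.16 TPM in mutants and 50.8 and 1.14 TPM in WT embryos.

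**Figure D3:**
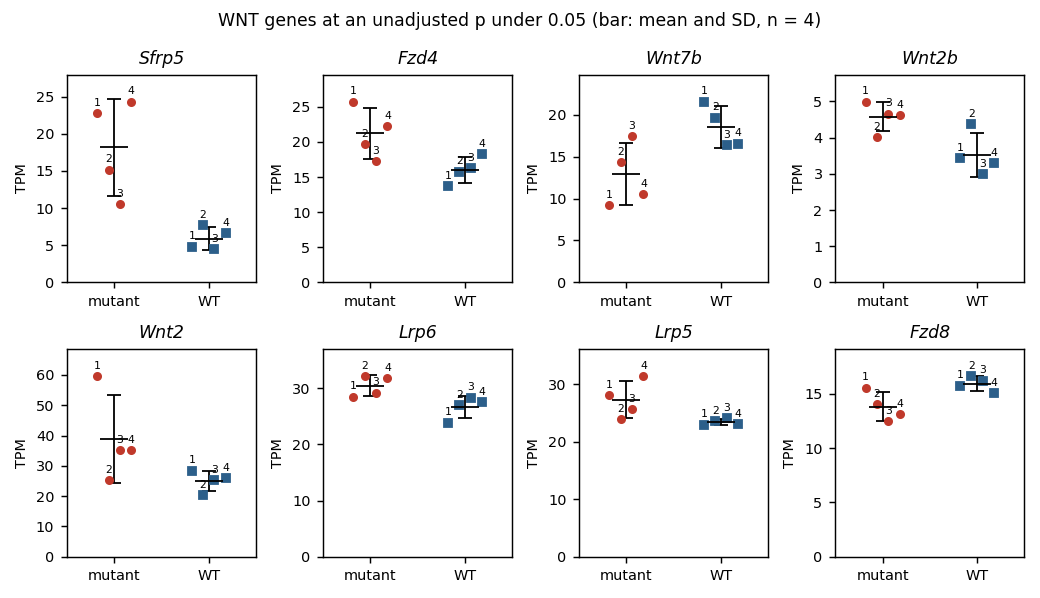
TPM in each embryo, numbered 1 to 4, for the 8 genes at an unadjusted p under 0.05, mutants on the left of each panel and WT on the right; bars are the mean and SD (n = 4). Only Sfrp5 and Lrp6 have no overlap between groups among these panels, and in Wnt2 mutant 1 lies at 59.7 TPM, above the other mutants.

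The receptors summed to 501.0 ± 43.3 TPM in mutants and 479.1 ± 18.8 TPM in WT embryos (SD, n = 4 each). Fzd2 and Fzd7, which work together in closure of the neural tube and in tissue movements, led the group. Fzd2 had 130.6, 126.9, 133.2 and 161.3 TPM in mutants and 127.6, 128.1, 129.1 and 126.7 TPM in WT embryos. The WT embryos lay within a few TPM of each other, and mutant 4 stood above all others (log2 fold change 0.10, 95% confidence interval -0.06 to 0.26). Fzd7 had 100.4, 111.0, 101.3 and 134.2 TPM in mutants and 85.5, 100.4, 105.6 and 94.5 TPM in WT embryos, with mutant 4 again the highest (log2 fold change 0.20, 95% confidence interval -0.02 to 0.43; limma adjusted p = 0.395).

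Lrp6 and Lrp5 are the coreceptors that Frizzled proteins share, and both lay slightly higher in mutants. Lrp6 (chromosome 6, 134446476 to 134566965) had 28.5, 32.2, 29.2 and 31.8 TPM in mutants and 23.8, 27.0, 28.3 and 27.5 TPM in WT embryos. The groups did not overlap, but the lowest mutant and the highest WT embryo differed by less than 1 TPM. The log2 fold change came to 0.18 ± 0.07 (SE; limma adjusted p = 0.335), and the exact permutation p of 0.0286 is the smallest that 4 against 4 allow. Lrp5 had 28.2, 24.0, 25.8 and 31.5 TPM in mutants and 23.0, 23.7, 24.2 and 23.1 TPM in WT embryos, with mutant 2 inside the WT range (log2 fold change 0.20 ± 0.08; limma adjusted p = 0.344; exact permutation p = 0.0571).

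Fzd4 (chromosome 7, 89404355 to 89413134), which carries Norrin and WNT signals in blood vessels, had 25.7, 19.6, 17.3 and 22.2 TPM in mutants and 13.7, 15.8, 16.3 and 18.3 TPM in WT embryos. Mutant 3 lay below WT 4 and the other mutants lay above every WT embryo. The log2 fold change came to 0.38 ± 0.13 (SE; limma adjusted p = 0.308; exact permutation p = 0.0571). Endothelial markers, 6 of 6 above 0, summed to 136.9 to 181.4 TPM in mutants and 109.8 to 126.0 TPM in WT embryos, and were highest in mutant 1 as Fzd4 was. Their part in the Fzd4 difference was not tested.

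Fzd8, a receptor of the early forebrain, had 15.6, 14.1, 12.5 and 13.2 TPM in mutants and 15.8, 16.7, 16.2 and 15.1 TPM in WT embryos. Mutants 2, 3 and 4 were below every WT embryo and mutant 1 was level with them (log2 fold change -0.20 ± 0.08, SE; limma adjusted p = 0.352; exact permutation p = 0.0571). Fzd10, of the dorsal neural tube, had 36.8, 75.2, 72.3 and 67.4 TPM in mutants and 78.4, 81.3, 67.9 and 62.3 TPM in WT embryos, so that mutant 1 was far below the rest. Fzd9, known in the hippocampus, had the same low embryo, at 5.76 TPM in mutant 1, 10.4 to 13.8 TPM in the other mutants and 9.76 to 16.2 TPM in WT embryos.

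Fzd3, which guides axon tracts, had 28.7 to 49.4 TPM in mutants and 33.7 to 45.4 TPM in WT embryos. Fzd1 had 32.6 ± 1.71 TPM in mutants and 31.5 ± 3.10 TPM in WT embryos (SD, n = 4 each), with a 95% confidence interval of its log2 fold change of -0.12 to 0.22. Fzd6, a polarity receptor of skin and hair, had 7.46 to 12.2 TPM in mutants and 9.21 to 9.74 TPM in WT embryos. Fzd5, needed in the eye and in yolk sac vessels, had 4.75 to 6.46 TPM in mutants and 4.46 to 8.02 TPM in WT embryos.

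Sfrp5, a secreted Frizzled-related protein that binds WNT ligands and is known from the foregut endoderm, was the gene that differed most. Sfrp5 (chromosome 19, 42197971 to 42202252, minus strand) had 22.8, 15.2, 10.5 and 24.3 TPM in mutants 1 to 4 and 4.82, 7.68, 4.50 and 6.59 TPM in WT embryos 1 to 4. Every mutant was above every WT embryo, and the ratio of mean TPM was 3.08. The log2 fold change came to 1.43 ± 0.25 (SE), with a 95% confidence interval of 0.86 to 2.01. Its unadjusted limma p of 0.00028 ranked 18 among the 13596 genes, but the adjusted p was 0.209, which misses the threshold, and the exact permutation p of 0.0286 is the smallest possible. Sfrp5 rested on 161 to 880 reads per library. Leaving out any 1 embryo gave log2 fold changes of 1.28 to 1.66, each at an unadjusted limma p under 0.05.

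Marker lists of other tissues had median log2 fold changes on both sides of 0. All 13 yolk sac endoderm markers were higher in mutants at an unadjusted limma p under 0.05, with a median log2 fold change of 2.77. Their sum, 167.8 to 1471 TPM in mutants and 20.9 to 283.8 TPM in WT embryos, overlapped between genotypes through WT 3 alone. In mutants 1 to 4 the sums were 1471, 900.3, 250.2 and 167.8 TPM, beside 22.8, 15.2, 10.5 and 24.3 TPM of Sfrp5. In WT embryos 1 to 4 they were 20.9, 47.1, 283.8 and 24.6 TPM, beside 4.82, 7.68, 4.50 and 6.59 TPM of Sfrp5. Of 8 heart muscle markers, 6 were higher at an unadjusted limma p under 0.05, beside 5.55% of all tested genes, and 1 lay below 0. The median log2 fold change of the 8 was 0.66, and their sum was higher in every mutant than in any WT embryo. All tested markers of endothelium (6), primitive red cells (5) and trophoblast and decidua (5) had log2 fold changes above 0. That held for 37.7% of all tested genes. At an unadjusted limma p under 0.05 were 5 endothelial, 0 red cell and 2 trophoblast and decidua markers. The red cell sums overlapped, at 20370.2 to 51865.1 TPM in mutants and 14291.5 to 49243.8 TPM in WT embryos. All 4 neuronal markers lay below 0, 3 of them at an unadjusted limma p under 0.05, with a median of -0.78. Above 0 were 2 of 8 dorsal neural tube markers and 3 of 8 tail bud markers, beside the 37.7% of all tested genes. None in either list reached an unadjusted limma p under 0.05. The part of yolk sac endoderm, heart muscle or any other tissue in the Sfrp5 difference was not tested. The bases around the annotated start of Sfrp5 are shown because it is the gene with the largest difference. They are the RefSeq promoter window on GRCm38.p6, chr19:42202203-42202502, written on the minus strand of the gene, 250 bases before the start and 50 after it. The window held neither the TCF/LEF core, CTTTGAA or CTTTGAT, nor the GLI core, GGGTGGTC, on either strand, so it is all in lower case.
Sfrp5: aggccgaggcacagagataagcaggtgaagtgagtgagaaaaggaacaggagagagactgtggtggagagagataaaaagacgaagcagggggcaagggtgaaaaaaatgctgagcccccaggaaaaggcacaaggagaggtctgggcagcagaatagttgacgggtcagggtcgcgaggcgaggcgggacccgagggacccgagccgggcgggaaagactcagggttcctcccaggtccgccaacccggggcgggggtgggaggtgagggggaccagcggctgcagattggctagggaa

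The other secreted inhibitors overlapped between genotypes. Sfrp1 and Sfrp2, which stand in for each other in lengthening the body axis, were the most abundant. Sfrp1 had 128.9, 174.1, 135.3 and 157.5 TPM in mutants and 109.1, 156.8, 160.6 and 113.0 TPM in WT embryos (log2 fold change 0.15, 95% confidence interval -0.17 to 0.48). Sfrp2, which somites are known to express under Hedgehog control, had 71.6, 172.8, 137.7 and 151.6 TPM in mutants and 115.5, 172.4, 155.3 and 125.6 TPM in WT embryos. Mutant 1 was the lowest embryo for Sfrp2, and without it the log2 fold change turned from -0.15 to 0.13. Of the summed inhibitors, Sfrp1 was 40.0% ± 2.02 in mutants and 38.1% ± 3.12 in WT embryos, and Sfrp2 was 35.0% ± 7.57 in mutants and 40.3% ± 1.86 in WT embryos (SD, n = 4 each). Sfrp5 was 5.001% ± 2.14 of that sum in mutants and 1.69% ± 0.394 in WT embryos.

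Frzb, another Frizzled-related protein, had 20.4 to 37.1 TPM in mutants and 28.2 to 37.1 TPM in WT embryos. Dkk1, which blocks LRP6 and is needed to form the head, had 12.8, 9.92, 10.1 and 15.1 TPM in mutants and 13.7, 9.94, 8.81 and 11.03 TPM in WT embryos, with no separation. Dkk2 had 17.3, 9.81, 7.43 and 4.72 TPM in mutants and 6.90, 9.35, 5.33 and 8.09 TPM in WT embryos, where mutant 1 was the highest embryo and mutant 4 the lowest. Dkk3, a divergent family member, had 25.7 TPM in mutant 1, 14.8 to 16.2 TPM in the other mutants and 14.3 to 17.7 TPM in WT embryos. Wif1, which binds WNT proteins directly, had 0.573 to 1.28 TPM in mutants and 0.678 to 1.96 TPM in WT embryos.

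Sfrp4 was untested since only mutant 2 reached 1 TPM. It had 0.333, 3.78, 0.492 and 0.239 TPM in mutants 1 to 4 and 0.370, 0.322, 0.381 and 0.313 TPM in WT embryos 1 to 4. Trophoblast and decidua markers, 8 of 8 above 0, were also highest in mutant 2, which held a sum of 332.0 TPM, while mutants 1, 3 and 4 held 27.3 to 82.0 TPM and WT embryos held 13.0 to 36.3 TPM. Their part in the Sfrp4 level of that library was not tested. Dkk4 had 0.200 to 0.773 TPM in mutants and 0.323 to 0.486 TPM in WT embryos.

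**Figure D4:**
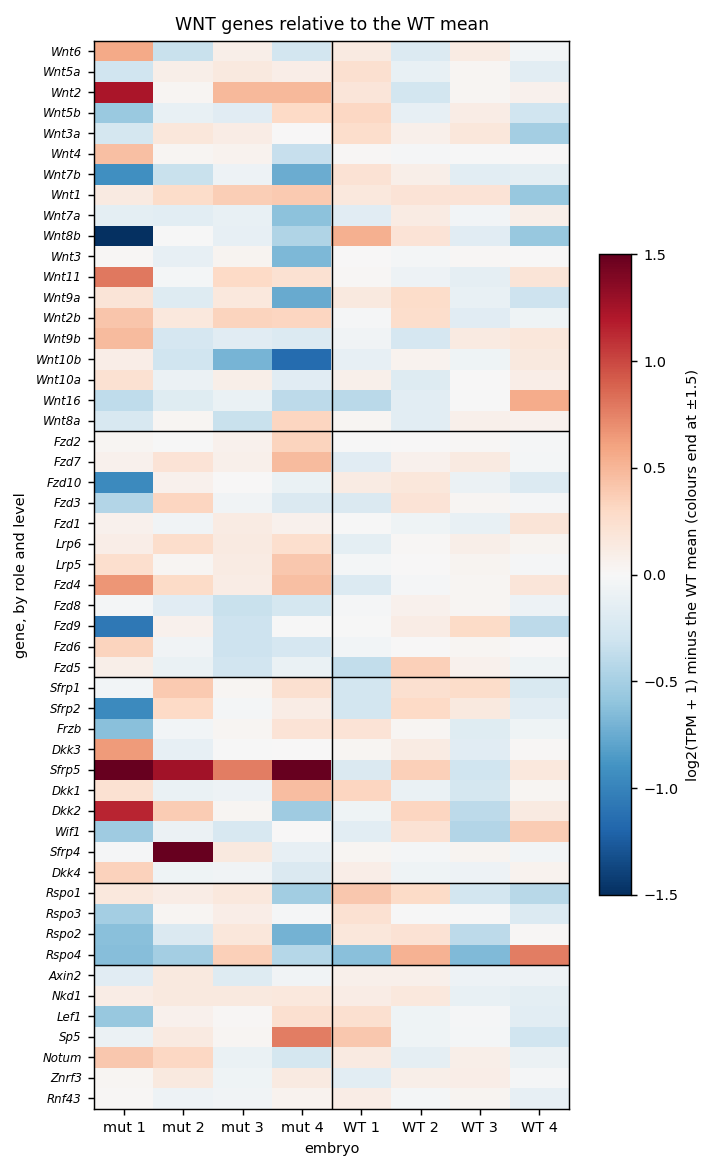
Log2(TPM + 1) of each of the 52 genes in each embryo minus the mean of the 4 WT embryos, by role and level, mutants in the left columns and WT in the right; colours end at ±1.5. Sfrp5 is higher in all 4 mutants, while many other strong colours belong to mutant 1 alone, such as Wnt2 at 59.7 TPM and Wnt8b at 1.65 TPM, or to mutant 2 alone for Sfrp4 at 3.78 TPM.

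R-spondins strengthen WNT signals by removing the ligases ZNRF3 and RNF43 from the cell surface. None of the 4 had a log2 fold change above 0, where 37.7% of all tested genes lay, and none reached an unadjusted p under 0.05. The R-spondin sum was 45.7 ± 7.16 TPM in mutants and 49.7 ± 8.49 TPM in WT embryos (SD, n = 4 each). Rspo1, known in ovary development, had 22.5, 21.7, 22.6 and 13.8 TPM in mutants and 26.9, 24.8, 16.4 and 14.9 TPM in WT embryos, and its log2 fold change of -0.02 was 0.02 with median-ratio scaling. Rspo3, needed for vessels of the placenta, had 14.3, 21.2, 22.2 and 20.4 TPM in mutants and 24.3, 20.5, 20.5 and 17.7 TPM in WT embryos.

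Rspo2, of limb and lung, had 2.75, 3.99, 5.53 and 2.57 TPM in mutants and 5.53, 5.76, 3.42 and 4.87 TPM in WT embryos (log2 fold change -0.35 ± 0.21, SE; limma adjusted p = 0.456; exact permutation p = 0.200). Rspo4, of the nail bed, had 1.51, 1.76, 4.02 and 1.93 TPM in mutants and 1.55, 4.63, 1.48 and 5.66 TPM in WT embryos. Mutant 3, WT 2 and WT 4 were the high embryos, and the other 5 lay below 2 TPM.

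The targets and feedback genes summed to 151.9 ± 12.5 TPM in mutants and 146.3 ± 12.6 TPM in WT embryos (SD, n = 4 each). None of the 7 reached an unadjusted p under 0.05, and 4 of 7 log2 fold changes were above 0, against 37.7% over all tested genes. Axin2, a scaffold of beta-catenin breakdown and a broad readout of canonical signalling, had 40.8, 51.2, 40.3 and 44.4 TPM in mutants and 48.8, 48.7, 43.6 and 43.7 TPM in WT embryos. The groups overlapped, and the log2 fold change was -0.07 ± 0.08 (SE), with a 95% confidence interval of -0.26 to 0.12 (limma adjusted p = 0.710). Lef1, which partners beta-catenin on DNA, had 14.3, 22.7, 22.0 and 25.8 TPM in mutants and 25.9, 20.7, 21.5 and 19.4 TPM in WT embryos, with mutant 1 the lowest.

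Nkd1, which binds Dishevelled and dampens the signal, had 43.5, 44.6, 44.9 and 44.9 TPM in mutants and 43.7, 44.9, 37.1 and 36.2 TPM in WT embryos. The mutants were level with WT 1 and 2, above WT 3 and 4 (log2 fold change 0.14, 95% confidence interval -0.03 to 0.31). Sp5, a transcription factor induced by WNT signals, had 15.1, 17.7, 16.4 and 28.2 TPM in mutants and 21.6, 15.3, 15.7 and 12.9 TPM in WT embryos, with mutant 4 highest. The summed TPM of tail bud markers was highest in that mutant too, at 292.7 TPM. Mutants 1, 2 and 3 held 107.2 to 192.0 TPM and WT embryos held 134.4 to 252.5 TPM. The mean log2(TPM + 1) of these markers was instead highest in WT 1, at 4.938, beside 4.934 in mutant 4. The part of tail bud tissue in the Sp5 level was not tested. Notum, an enzyme that strips the lipid from WNT proteins, had 7.85 to 13.1 TPM in mutants and 8.68 to 10.7 TPM in WT embryos.

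The ligases that remove Frizzled proteins varied little among embryos. Znrf3 had 10.1 ± 0.759 TPM in mutants and 9.64 ± 0.860 TPM in WT embryos (SD, n = 4 each), with a 95% confidence interval of its log2 fold change of -0.15 to 0.27. Rnf43 had 2.01 ± 0.120 TPM in mutants and 2.05 ± 0.218 TPM in WT embryos, with an interval of -0.24 to 0.21.

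RefSeq promoter windows on GRCm38.p6 matched 34 of the 52 genes, with 41 windows in all. The TCF/LEF core was in 4 of the 41, those of Sp5, Dkk1, Wnt5b and Wnt11, and in 8.65% of 32851 windows of all genes. The GLI core was in 0 of the 41 and in 0.807% of all windows. A match is a run of letters, not a shown site. The windows of Sp5 (chr2:70474673-70474972, plus strand) and Dkk1 (chr19:30549447-30549746, minus strand) are printed because both genes are known targets of the canonical branch and both overlapped between genotypes here. Capitals mark the TCF/LEF core, which begins 104 bases before the start in Sp5 and 117 bases before it in Dkk1.
Sp5: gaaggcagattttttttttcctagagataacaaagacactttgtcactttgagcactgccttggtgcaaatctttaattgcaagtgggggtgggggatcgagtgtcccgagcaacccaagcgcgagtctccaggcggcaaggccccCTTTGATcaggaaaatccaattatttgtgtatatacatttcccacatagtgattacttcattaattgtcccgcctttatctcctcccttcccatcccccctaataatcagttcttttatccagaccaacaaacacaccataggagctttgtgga
Dkk1: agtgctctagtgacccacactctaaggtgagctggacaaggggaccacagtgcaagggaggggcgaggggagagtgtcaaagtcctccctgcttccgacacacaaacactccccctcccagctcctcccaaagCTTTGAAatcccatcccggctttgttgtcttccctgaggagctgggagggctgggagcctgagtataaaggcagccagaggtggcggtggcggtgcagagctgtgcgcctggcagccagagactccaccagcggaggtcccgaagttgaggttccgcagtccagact

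Other genes of the pathway, 73 in 7 lists written from their known roles, were read the same way. Of 72 tested, 0 passed the threshold, and 6 higher and 5 lower reached an unadjusted p under 0.05, or 15.3% against the 13.5% of all tested genes. The median log2 fold change was -0.001. Lgr6 was below the level needed for a test.

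Of 18 cytoplasmic relay and destruction complex genes, 2 were higher and 3 lower at an unadjusted p under 0.05, or 27.8% of the list, against the 13.5% of all tested genes. Dact1, which binds Dishevelled, had 50.9, 43.5, 45.3 and 52.8 TPM in mutants and 40.7, 37.2, 38.1 and 37.3 TPM in WT embryos, with no overlap (log2 fold change 0.32; limma adjusted p = 0.281). Nkd2, the relative of Nkd1, lay the other way, at 11.1, 15.5, 15.8 and 11.7 TPM in mutants and 21.4, 17.5, 16.5 and 20.2 TPM in WT embryos, also with no overlap (log2 fold change -0.46; limma adjusted p = 0.281). Dact2 was the other higher gene, and Axin1 and Apc2 were the other lower ones. In the other lists the groups also did not overlap for Ror1 and Bcl9l, higher in mutants, and Tle1, lower. Of all tested genes, 3.63% lay wholly higher and 3.82% wholly lower in mutants.

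Of 10 other receptors tested, 1 was higher, Ror1, a receptor for Wnt5a, at 28.8, 19.2, 19.2 and 20.7 TPM in mutants and 17.6, 17.2, 17.1 and 16.2 TPM in WT embryos (log2 fold change 0.33; limma adjusted p = 0.322). Kremen2, a partner of Dkk1, had 4.75 ± 2.53 TPM in mutants and 6.61 ± 0.817 TPM in WT embryos (SD, n = 4 each). Of 12 nuclear factors, 1 was higher and 2 lower, or 25% of the list, again against 13.5%. Bcl9l, a partner of beta-catenin, had 27.1 ± 3.06 TPM in mutants and 23.0 ± 0.491 TPM in WT embryos. Tle1, a corepressor, had 20.2 ± 1.50 TPM in mutants and 23.5 ± 1.60 TPM in WT embryos, and Tcf7l2 was the other lower gene.

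Of 9 planar cell polarity genes, 1 was higher, Vangl1, at 12.1 ± 1.04 TPM in mutants and 10.1 ± 1.20 TPM in WT embryos (SD, n = 4 each), and Fuz, which also serves the primary cilium, had 5.76 ± 1.06 TPM in mutants and 7.05 ± 0.755 TPM in WT embryos. Of 8 further inhibitors, 1 was higher, Trabd2b, a protease that cuts WNT proteins, at 6.92 ± 0.945 TPM in mutants and 5.28 ± 0.591 TPM in WT embryos, and Igfbp4 averaged 325.4 TPM in mutants and 291.5 TPM in WT embryos. Ligand production genes, 2 in number, gave none: Wls, the carrier that takes WNT proteins to the cell surface, had 67.9 ± 5.07 TPM in mutants and 62.2 ± 5.58 TPM in WT embryos, and Porcn, which attaches the lipid, at 5.94 ± 0.253 TPM in mutants and 6.22 ± 0.417 TPM in WT embryos. Of 13 other target genes none reached an unadjusted p under 0.05. The smallest p there were those of Isl1, at 12.5 ± 3.10 TPM in mutants and 16.5 ± 3.60 TPM in WT embryos, and T, the tail bud factor Brachyury, at 22.5 ± 7.45 TPM in mutants and 31.7 ± 9.21 TPM in WT embryos.

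Mutant embryos varied more than WT embryos in most WNT genes, as they did in the table at large. The SD of log2(TPM + 1) was larger in mutants for 36 of the 49 tested genes (73.5%) and for 81.3% of all tested genes. It was over 5 times larger in mutants for 5 WNT genes (10.2%), Wnt4, Wnt3, Fzd2, Lrp5 and Fzd6, and for 8.79% of all tested genes. For these 5 the coefficient of variation of TPM was 0.779% to 2.32% in WT embryos, the 5 lowest WT values among the 52 genes. For Nkd1 it was the reverse, at 1.45% in mutants and 11.02% in WT embryos.

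Each mutant was also set against the range of the 4 WT embryos. Mutant 1 had 16 of the 49 genes above that range (32.7%) and 15 below it (30.6%), against 35.0% and 26.2% of all tested genes. Mutant 2 had 13 above (26.5%) and 6 below (12.2%), against 35.0% and 17.3%. Mutant 3 had 10 above (20.4%) and 5 below (10.2%), against 11.8% and 54.0%. Mutant 4 had 15 above (30.6%) and 13 below (26.5%), against 21.7% and 48.7%. In mutants 3 and 4 the share of WNT genes below the WT range was thus smaller than that of all genes, and in mutants 1 and 2 the shares were closer. These shares are on TPM without further scaling. The median-ratio size factor, the typical gene level of a library, was 1.041, 1.048, 0.924 and 0.940 in mutants 1 to 4. It was 1.007 to 1.044 in WT embryos. The part of these library-wide shifts in the shares was not tested. Whether these shares differ was not tested, since genes of 1 embryo are not replicates.

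**Figure D5:**
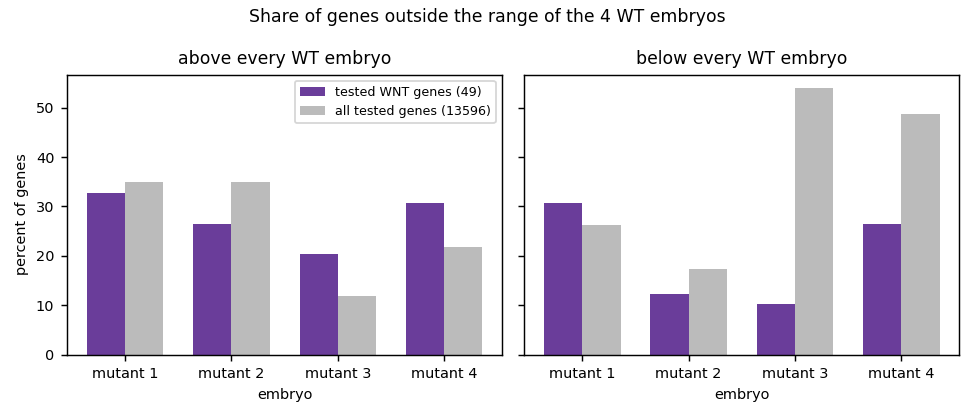
Percent of genes above (left) and below (right) all 4 WT embryos in each mutant, for the 49 tested WNT genes and for all 13596 tested genes, on TPM without median-ratio scaling. In mutant 3 the bars below the WT range stand at 10.2% for the WNT genes and 54.0% for all genes, and in mutant 1 at 30.6% and 26.2%.

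The mutants differed in which WNT genes lay high or low. Examples are given here, not full lists. Mutant 1 was the highest of the 8 embryos for Wnt6, Wnt2, Wnt4, Wnt11, Fzd4, Dkk2 and Dkk3. It was the lowest for Wnt5a, Wnt7b, Wnt8b, Fzd10, Fzd9, Sfrp2 and Lef1. Mutant 4 was the highest for Fzd2, Fzd7, Lrp5, Sfrp5, Dkk1 and Sp5 and the lowest for Wnt4, Wnt3, Wnt7a, Wnt9a, Wnt10b and Rspo1. Without mutants 1 and 2, limma called 5 WNT genes, Wnt2 and Sfrp5 higher and Fzd6, Wnt10b and Fzd8 lower, but that fit called 24.8% of all tested genes and rests on 2 mutants. Without mutants 3 and 4 it called none of the WNT genes.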

How the data were processed

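Total RNA of 8 whole embryos was sequenced from TruSeq libraries on a NovaSeq, per the labels' protocols. The authors deposited 1 table of TPM per gene symbol on build GRCm38, per the submitters' processing notes; for the aligner, counter, annotation and strandedness, the sources used here give nothing. All 8 columns were matched by name and 0 were left over. With merged exon lengths from GENCODE M21, TPM steps gave whole reads within 0.02 for 97.4% to 97.6% of genes with few enough reads to judge, over the 91.0% of symbols matched to 1 gene. Whether reads of overlapping antisense genes were kept apart is thus not known, as for Wnt7b, Sfrp2 and Notum, whose partners averaged under 1 TPM.

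Genes with 1 TPM in at least 4 embryos were tested, mutant over WT, in limma 3.58.1 (R 4.3.3). Input was log2(TPM + 1), with trended moderation, genotype as the only term and Benjamini-Hochberg adjustment over 13596 genes. A fold change of TPM + 1 understates that of low genes. Exact permutation tests were two-sided over the 70 assignments. The fit was tested on simulated data that gave both genotypes the same SD. That does not check it under the larger SD of mutants seen here in most genes. The labels tie no embryo to a litter. Genes named in full were, in each role, the 2 highest in level and the 2 of smallest p, and any with an unadjusted p under 0.05 or no overlap; of the other lists, 2 of smallest p. Others were named by their values. The members and lists were chosen with earlier results of these data known. Alternatives were other pseudocounts, filters, scalings, weights, no trend, leaving out embryos and the replicate number as a block.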

Additional observations from a re-analysis of the deposited data

Results flagged for a closer look

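In 8 of 104 sets of 4 embryos (7.69%), 1 embryo lay far from the other 3 of its genotype by Dixon's ratio, which chance alone reaches in about 1 of 20 sets. In mutant 1 these were Wnt5a, at 28.1 TPM beside 36.9 to 38.6 TPM for mutants 2 to 4, Wnt9b, at 3.81 against 1.91 to 2.06 TPM, and Dkk3, at 25.7 against 14.8 to 16.2 TPM. In mutant 4 they were Wnt7a, at 9.88 against 13.9 to 14.4 TPM, and Rspo1, at 13.8 against 21.7 to 22.6 TPM. Sfrp4 was at 3.78 TPM in mutant 2, against 0.239 to 0.492 TPM, and Rspo4 at 4.02 TPM in mutant 3, against 1.51 to 1.93 TPM. The single WT embryo was WT 4, with Wnt1 at 8.72 TPM, where WT 1 to 3 had 15.03 to 15.6 TPM.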

How the results depend on the processing

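No WNT gene passed the threshold under 18 of the 19 alternatives; the exception, without mutants 1 and 2, called 5. The 8 genes at an unadjusted p under 0.05 became 5 with the replicate block, 5 without mutants 3 and 4, 10 with array weights, 11 without mutants 1 and 2, and 4 to 9 when 1 embryo was left out. The 2 genes without overlap became 4 with TPM rescaled without mitochondrial transcripts, 7 without mutants 3 and 4, 11 without mutants 1 and 2, and 3 to 7 with 1 embryo left out, since fewer embryos overlap less. With the rescaled TPM, 6 higher and 1 lower genes had an unadjusted p under 0.05, against 6 and 2. Median-ratio scaling took the median log2 fold change to 0.018, and leaving out 1 embryo gave -0.045 to 0.022. The split over all genes was 754 higher and 1088 lower, and 1220 and 939 with median-ratio scaling.

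Of 22 genes described with a fold change under each setting, 17 kept their direction under all 19. Wnt6, Wnt5a, Rspo1, Rspo3 and Sfrp2, at 0.01, 0.01, -0.02, -0.10 and -0.15 in the fit of all 8 embryos, did not. Signs turned with array weights for Wnt6 (-0.044) and Rspo3 (0.0062), with median-ratio scaling for Rspo1 (0.018), without mutants 3 and 4 for Wnt5a (-0.11) and Rspo1 (0.13), and without mutants 1 and 2 for Wnt6 (-0.094), Rspo3 (0.042) and Sfrp2 (0.041). With 1 embryo left out they ran from -0.17 to 0.13 for Wnt6, -0.045 to 0.11 for Wnt5a, -0.16 to 0.14 for Rspo1, -0.17 to 0.040 for Rspo3 and -0.29 to 0.13 for Sfrp2. The cause was not tested. Sfrp5 kept an unadjusted p under 0.05 in all 19, with limma adjusted p of 0.0232 to 0.564. With the replicate block, Wnt2b, Lrp5 and Fzd8 had unadjusted limma p of 0.0647, 0.0573 and 0.0668, and Sfrp5, Wnt2, Wnt7b, Lrp6 and Fzd4 stayed under 0.05. The block fit was not summarised for the other pathway lists. Deviations of same-numbered embryos from their group means, over all tested genes, correlated at -0.0618, 0.0398, -0.194 and -0.245. These values cannot decide whether same-numbered embryos shared a litter, since other differences between single embryos enter them too.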
